A study of Homo sapiens with 18 samples.

Results

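The genes of the proteasome and the immunoproteasome were followed across NF-kB subunit knockouts in GM12878, an Epstein-Barr virus-transformed lymphoblastoid B-cell line. Members were the protein-coding genes whose symbols join PSMA, PSMB, PSMC, PSMD, PSME, PSMF or PSMG to a number. Of 17155 genes in the table, 46 matched, and 45 had a mean normalised read count of at least 10 over the 18 libraries. The gene left out was PSMA8, a testis variant of the core alpha subunit PSMA7, at a mean of 0.907; the lowest inside were PSMA2 at 298.2 and PSMD9 at 329.4. PSMB3 and the thymic subunit PSMB11 are not analysed here.

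Polyadenylated RNA was sequenced from 6 groups of 3 libraries: GM12878 cells given guides against cRel (gene REL), p50 (NFKB1), p52 (NFKB2), RelA (RELA) or RelB (RELB), and cells given a non-targeting control guide (pxpr). All 6 groups are labelled wild type for LMP1, the viral protein that keeps NF-kB active in such cells, and all received guide-bearing lentivirus and puromycin at 3 µg/ml for 5 days. The labels call the replicates biological, and nothing used here says whether they were separate transductions, pools or clones, so p-values measure the spread between these libraries. The libraries held 15.2 to 37.5 M reads assigned to genes.

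To check the labels, each targeted gene was read first. In its own knockout NFKB1 fell by 0.59, NFKB2 fell by 0.44 and RELA fell by 0.69 on the log2 scale, each against the control (limma adjusted p = 3.1e-07, 1.5e-06 and 2.6e-07). REL differed by -0.02 ± 0.19 (SE, adjusted p = 0.96) in its knockout, with a wide spread among the controls, and by -0.33 (adjusted p = 0.0037) when control 3, p52 knockout 3 and RelA knockout 2 were left out. RELB was higher by 0.31 (adjusted p = 0.00017) in its knockout. Guides that break a reading frame need not lower the messenger RNA, and the labels report an immunoblot check of each knockout; these libraries are called cRel-labelled and RelB-labelled because their mRNA goes against the label or is undecided. Each library's deviations from its own group's mean were correlated across genes with transcript length. Control 3, p52 knockout 3 and RelA knockout 2 had the most negative values, at rho = -0.45, -0.38 and -0.31. Their group partners went the other way, at 0.24 and 0.36 in control, 0.25 and 0.27 in p52 and 0.13 and 0.19 in RelA knockout libraries. Deviations within a group of 3 cancel, so these values do not show which of its libraries is the odd one. B-cell markers were present in every library, 8 of 8 with summed counts of 45860 to 50550 in RelB-labelled cells, and 44350 to 45490 in control cells. MS4A1 was the largest part of these sums, at means of 21620 and 24580. Single markers did change: in RelB-labelled cells 3 of the 8 were called higher and 1 lower, beside 33.1% and 34.7% of all genes. Of the T and NK cell list, 5 of 8 genes were in the table: CD3D was at most 1.63 in any library, while NKG7 ranged from 290 to 702, GNLY from 4.9 to 49.2 and CD3E from 12.4 to 26.8. Of the monocyte list, 7 of 8 were in the table: CD14 was at most 3.16, while CSF1R ranged from 307 to 758 and VCAN from 12.1 to 71.4. Of the fibroblast and epithelial list, 6 of 8 were in the table. COL1A1 ranged from 707 to 1570 and EPCAM from 22.7 to 59.3, while KRT8 was at most 21.3, KRT18 3.94, COL1A2 3.31 and LUM 1.63.

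The proteasome degrades proteins tagged with ubiquitin. Its barrel-shaped 20S core is built of alpha rings (PSMA genes), which gate the entrance, around beta rings (PSMB genes), of which PSMB5, PSMB6 and PSMB7 cut the substrate. The 19S regulatory particle (PSMC ATPases and PSMD non-ATPases) recognises, unfolds and feeds the substrate. In cells of the immune system and under interferon, PSMB8, PSMB9 and PSMB10 replace PSMB5, PSMB6 and PSMB7 in newly built cores, and PSME1 and PSME2 form the PA28 activator ring; the resulting immunoproteasome favours peptides that fit MHC class I. The constitutive subunits compared here were 30 genes, 13 of the core and 17 of the regulatory particle, and the inducible subunits were the 5 genes PSMB8, PSMB9, PSMB10, PSME1 and PSME2.

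Constitutive proteasome transcripts were lower in the RelB-labelled, p52 and p50 knockouts, and none was called in the cRel-labelled or RelA knockouts. The inducible genes split: PSMB8 and PSME2 fell in those same 3 knockouts, while PSMB9, PSMB10 and PSME1 were called lower in none of them. Calls are limma's, at an adjusted p under 0.05 by Benjamini-Hochberg over 12381 genes; fold changes are on the scale of log2(normalised read count + 1).

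**Figure D1:**
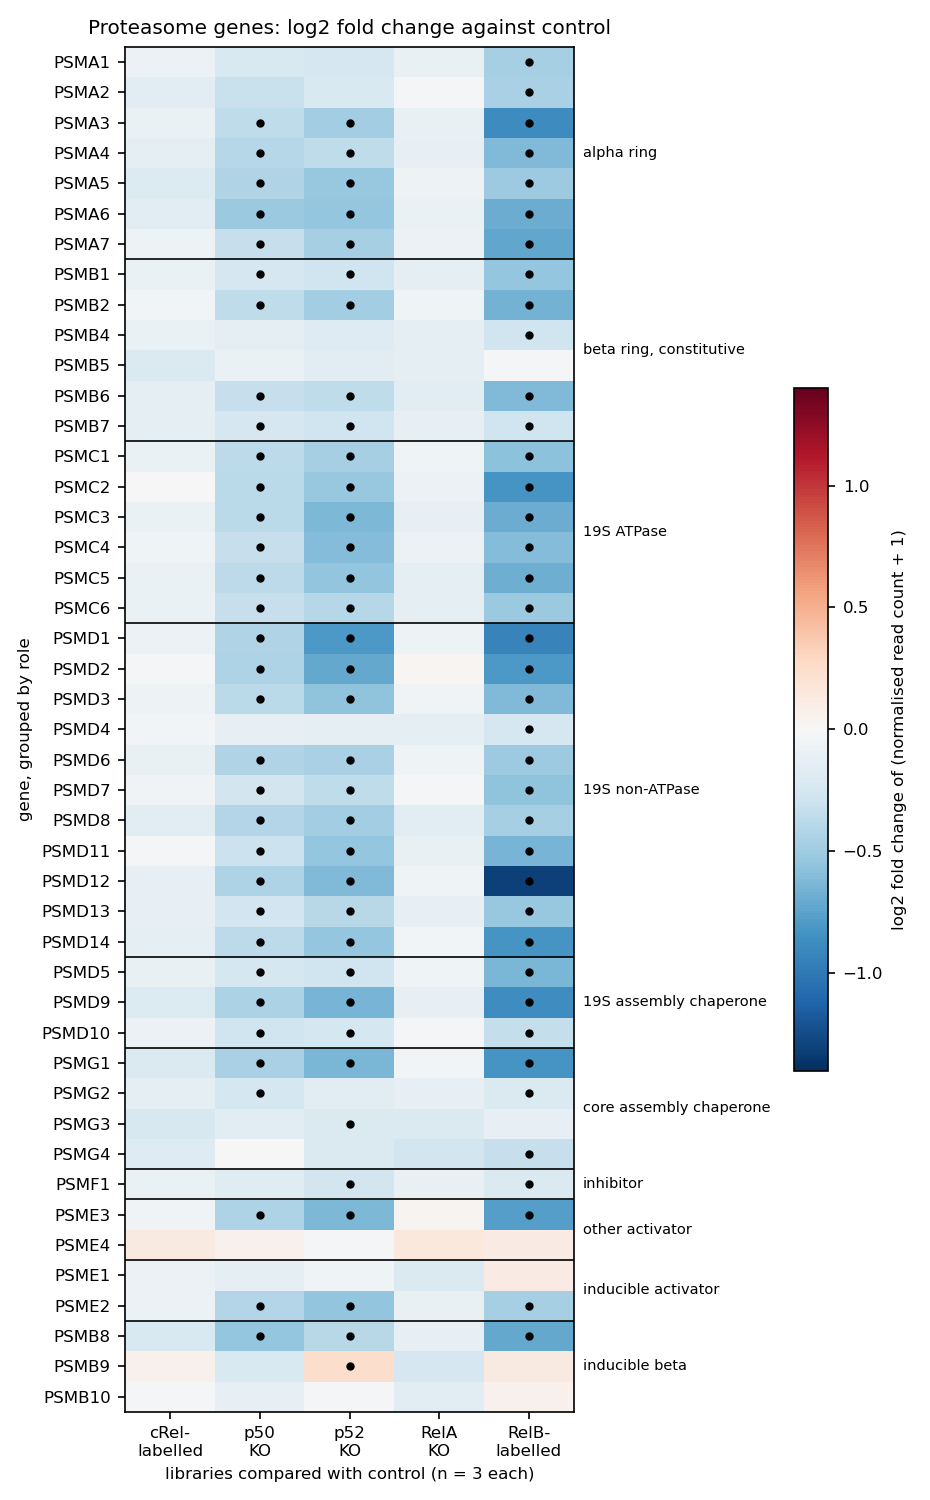
Log2 fold change of each of the 45 members (rows, grouped by role) against control in the cRel-labelled, p50, p52, RelA and RelB-labelled libraries (columns, 3 libraries a group), blue for lower and red for higher, with a dot where the adjusted p was under 0.05. The cRel-labelled and RelA columns hold no dot, and the deepest value is PSMD12 at -1.31 in RelB-labelled libraries.

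In RelB-labelled cells 39 of the 45 members fell and 0 rose, where 34.7% of all genes tested were called lower and 33.1% higher. The 6 not called were PSMB5, PSMB9, PSMB10, PSME1, PSME4 and PSMG3. Other settings called some members higher in these cells. After transcript length correction 38 fell and 3 rose, after quantile normalisation 34 fell and 2 rose, and without control 3, 36 fell and 2 rose. In p52 knockout cells 34 members fell and 1, PSMB9, rose, against 26.4% of all genes called lower and 24.5% higher. In p50 knockout cells 33 fell and 0 rose, against 19.6% of all genes called lower and 17% higher; without control 3, 25 were called in p50 knockout cells. In the cRel-labelled comparison 0 members were called by limma, edgeR or DESeq2, 5 had an unadjusted p under 0.05, and 6.09% of all genes were called. In RelA knockout cells 0 were called by the same tools, 5 had an unadjusted p under 0.05, and 5.55% of all genes were called. The 5 comparisons share the 3 control libraries.

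Because promoter sequence is what transcription factors read, the 250 bases before the annotated start are shown for the inducible genes, whose responses divided, and for 3 constitutive genes that fell in all of the RelB-labelled, p52 and p50 knockouts. Sequences are from RefSeq on GRCh38.p14, given 5′ to 3′ on the gene's strand; 39 of the 45 members matched. Capitals mark matches on either strand to any of 5 motifs: the kappaB consensus bound by NF-kB, the core of the interferon-stimulated response element (GAAA, any 2 bases, GAAA), TTCNNNGAA (the interferon-gamma activated site), TGANNNNGC (the core of the antioxidant response element, through which NFE2L1 drives proteasome genes) and CCAAT (bound by NF-Y). The inducible genes were:
PSMB8 (chr6:32844680-32844929, minus strand): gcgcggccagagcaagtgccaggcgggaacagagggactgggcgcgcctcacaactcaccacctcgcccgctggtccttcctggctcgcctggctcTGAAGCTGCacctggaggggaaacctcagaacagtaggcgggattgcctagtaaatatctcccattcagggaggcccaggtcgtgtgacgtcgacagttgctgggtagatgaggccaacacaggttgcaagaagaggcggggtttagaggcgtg
PSMB8, second start (chr6:32844048-32844297, minus strand): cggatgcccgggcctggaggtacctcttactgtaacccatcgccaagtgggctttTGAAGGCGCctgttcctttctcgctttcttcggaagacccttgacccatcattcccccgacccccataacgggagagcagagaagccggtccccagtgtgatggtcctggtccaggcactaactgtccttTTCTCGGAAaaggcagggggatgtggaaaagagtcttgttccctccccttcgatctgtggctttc
PSMB9 (chr6:32853942-32854191, plus strand): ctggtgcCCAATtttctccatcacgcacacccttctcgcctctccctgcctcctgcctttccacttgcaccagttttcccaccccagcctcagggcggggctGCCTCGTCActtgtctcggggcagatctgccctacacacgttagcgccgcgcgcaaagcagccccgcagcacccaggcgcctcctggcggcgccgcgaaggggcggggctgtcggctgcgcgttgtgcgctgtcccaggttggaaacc
PSMB10 (chr16:67936851-67937100, minus strand): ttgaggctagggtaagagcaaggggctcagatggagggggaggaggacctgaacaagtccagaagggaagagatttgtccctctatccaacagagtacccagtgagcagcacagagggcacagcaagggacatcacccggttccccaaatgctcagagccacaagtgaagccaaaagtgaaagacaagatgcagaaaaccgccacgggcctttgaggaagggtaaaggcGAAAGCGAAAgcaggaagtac
PSME1 (chr14:24135944-24136193, plus strand): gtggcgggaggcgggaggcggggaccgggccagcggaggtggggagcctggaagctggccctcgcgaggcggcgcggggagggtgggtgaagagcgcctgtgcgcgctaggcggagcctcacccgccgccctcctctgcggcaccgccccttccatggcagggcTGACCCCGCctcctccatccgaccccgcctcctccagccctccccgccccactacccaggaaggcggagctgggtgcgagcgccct
PSME2 (chr14:24146611-24146860, minus strand): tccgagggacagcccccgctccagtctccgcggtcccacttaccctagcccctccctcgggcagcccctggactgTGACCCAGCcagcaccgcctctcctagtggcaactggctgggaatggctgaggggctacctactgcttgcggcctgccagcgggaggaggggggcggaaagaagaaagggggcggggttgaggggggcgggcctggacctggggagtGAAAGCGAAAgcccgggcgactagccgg
The 3 constitutive genes were PSMD12, a regulatory particle lid scaffold, PSMA3, an alpha ring subunit, and PSMD14, the lid's deubiquitinase:
PSMD12 (chr17:67366578-67366827, minus strand): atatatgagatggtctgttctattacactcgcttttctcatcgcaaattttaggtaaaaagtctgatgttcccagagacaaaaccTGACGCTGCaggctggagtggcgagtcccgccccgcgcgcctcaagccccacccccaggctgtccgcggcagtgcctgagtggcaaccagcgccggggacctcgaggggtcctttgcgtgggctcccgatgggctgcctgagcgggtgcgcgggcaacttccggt
PSMA3 (chr14:58244593-58244842, plus strand): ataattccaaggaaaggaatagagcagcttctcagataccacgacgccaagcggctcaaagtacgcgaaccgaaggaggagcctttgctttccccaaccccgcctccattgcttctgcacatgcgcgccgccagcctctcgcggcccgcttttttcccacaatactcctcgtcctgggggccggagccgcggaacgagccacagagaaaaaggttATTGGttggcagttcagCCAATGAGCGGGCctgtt
PSMD14 (chr2:161308175-161308424, plus strand): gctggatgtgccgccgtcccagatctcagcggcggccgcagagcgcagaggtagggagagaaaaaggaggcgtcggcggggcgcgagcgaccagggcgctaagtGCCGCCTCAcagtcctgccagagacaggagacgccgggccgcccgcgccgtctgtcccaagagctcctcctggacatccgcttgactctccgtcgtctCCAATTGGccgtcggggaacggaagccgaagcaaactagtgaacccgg
PSMB10 and PSME2 carry the same letters, GAAAGCGAAA, shortly before their starts, at -21 to -12 in PSMB10 and -28 to -19 in PSME2. Against control, PSME2 fell in 3 knockouts and PSMB10 was called in none. A gene was counted once, if any of its windows held the motif, and the background was all 27303 genes with a RefSeq promoter, tested here or not. That response element core was in 12.8% of the matched members and 3.71% of the background genes, and among the members it was in PSMA4, PSMB4, PSMB10, PSME2 and PSMG4. The kappaB consensus was in 1 of 39 members, PSMA4, and in 11.8% of the background genes, and none of the windows printed here holds it. TTCNNNGAA was in 15.4% of members and 8.09% of background genes, TGANNNNGC in 56.4% of members and 40.3% of background genes, and CCAAT in 43.6% of members and 37.0% of background genes. PSMA3 has a CCAAT match whose last letter begins its TGANNNNGC match, and the PSMD14 window has overlapping CCAAT matches on both strands. The windows of PSMD1 and PSMD2, which also fell in these 3 knockouts, hold none of the 5 motifs. These matches are letters in a window and were not tested against the fold changes.

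The alpha ring fell as a block in RelB-labelled cells, with 7 of 7 genes lower and a median log2 fold change of -0.62, from -0.88 to -0.45. Of all genes, 34.7%, 26.4% and 19.6% were called lower in RelB-labelled, p52 and p50 knockout cells. In p52 knockout cells 5 of 7 fell with a median of -0.46, and in p50 knockout cells 5 of 7 fell with a median of -0.35. PSMA1 and PSMA2 were not called in either. In p52 knockout libraries PSMA1 had 541.7, 592.9 and 843.1 and PSMA2 had 263.7, 241.6 and 387.3, so p52 knockout 3 was the highest for both. PSMA3 (ENSG00000100567, chromosome 14) had normalised read counts of 2218, 2347 and 2441 in RelB-labelled libraries, against 4021, 4090 and 4836 in control libraries. The groups did not overlap, and PSMA3 was 1.84-fold lower (log2 -0.88 ± 0.10 SE, adjusted p = 1.5e-07). PSMA6, another alpha ring subunit, had 504, 473 and 459.9 in p50 knockout libraries, against 593.3, 703.9 and 774.9 in control libraries, and fell by 0.52 on the log2 scale (adjusted p = 0.00015). It fell by 0.54 in p52 knockout cells and by 0.70 in RelB-labelled cells.

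The constitutive beta ring moved less evenly. In RelB-labelled cells 5 of 6 measured genes fell, beside 34.7% of all genes, with a median of -0.41 and a range of -0.66 to -0.02. Among the cutting subunits, PSMB6 (ENSG00000142507, chromosome 17), with caspase-like activity, had 1404, 1601 and 1603 in RelB-labelled libraries, against 2291, 2191 and 2596 in control libraries, and was 1.53-fold lower (log2 -0.62 ± 0.08, adjusted p = 5.2e-07). It also fell by 0.36 in p52 and by 0.32 in p50 knockout cells (adjusted p = 0.00065 and 0.0036). PSMB7, with trypsin-like activity, averaged 3716 ± 157 in RelB-labelled, 3712 ± 210 in p52 knockout, 3840 ± 386 in p50 knockout and 4515 ± 540 in control libraries (SD, n = 3 each). Its log2 differences of -0.28, -0.28 and -0.23 from control passed the test (adjusted p = 0.0041, 0.0058 and 0.025). Quantile normalisation ended the PSMB7 call in these 3 knockouts (adjusted p = 0.11, 0.076 and 0.19), and leaving out control 3 ended it in p52 (-0.18, adjusted p = 0.053) and p50 (-0.14, adjusted p = 0.18), where leaving out p50 knockout 2 did so as well (-0.15, adjusted p = 0.18).

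PSMB5, with chymotrypsin-like activity, was the one constitutive gene not called in RelB-labelled cells. It had 1328, 1327 and 1491 in RelB-labelled libraries, against 1260, 1275 and 1714 in control libraries; the groups overlapped, control 3 was the highest, and the difference was -0.02 ± 0.11 (adjusted p = 0.87). Without control 3 it was 0.12 (adjusted p = 0.32), so its sign is not settled. In p50 and p52 knockouts PSMB5 differed by -0.09 and -0.15 (adjusted p = 0.59 and 0.27), and by -0.29 (adjusted p = 0.028) in p52 knockout cells without p52 knockout 3.

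The 19S ATPases, the ring of motor proteins that unfolds substrates, fell in 6 of 6 genes in each of the RelB-labelled (median -0.64), p52 (median -0.54) and p50 (median -0.37) knockouts. Beside them, 34.7%, 26.4% and 19.6% of all genes were called lower in these 3 knockouts. PSMC2 had 1782, 1795 and 1855 in RelB-labelled libraries, against 2995, 3140 and 3550 in control libraries. The groups lay well apart, and PSMC2 was 1.78-fold lower (log2 -0.83 ± 0.07, adjusted p = 5.1e-10). PSMC3, another ATPase of the ring, fell by 0.63 in p52 knockout cells, with 2730, 2552 and 2935 against 3900, 3999 and 4891 in control libraries (adjusted p = 8.4e-07).

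Of the 19S non-ATPases, 11 of 11 fell in RelB-labelled cells, and 10 of 11 fell in both the p52 and the p50 knockouts, PSMD4, a ubiquitin receptor, being the one not called there. Of all genes, 34.7%, 26.4% and 19.6% were called lower in RelB-labelled, p52 and p50 knockout cells. In p52 knockout libraries PSMD4 had 3064, 3165 and 3928, the highest being p52 knockout 3. PSMD12 (ENSG00000197170, chromosome 17) had 1451, 1373 and 1431 in RelB-labelled libraries, 2367, 2255 and 2227 in p52 knockout libraries, 2713, 2558 and 2553 in p50 knockout libraries, and 3432, 3616 and 3488 in control libraries. Every library of these 3 knockouts was below every control, and the 4 groups did not overlap one another. PSMD12 was 2.48-fold lower in RelB-labelled cells (log2 -1.31 ± 0.06, adjusted p = 3.3e-14), and fell by 0.62 in p52 and by 0.43 in p50 knockout cells (adjusted p = 1.8e-08 and 7.7e-06).

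PSMD1 and PSMD2 are the large scaffold subunits of the 19S base, where ubiquitin receptors and shuttle proteins dock. PSMD1 (ENSG00000173692, chromosome 2) had 2903, 3367 and 3238 in RelB-labelled libraries, 3554, 3321 and 3607 in p52 knockout libraries, and 5708, 5927 and 6631 in control libraries. The 2 knockout ranges overlapped each other and lay below the control range. PSMD1 was 1.92-fold lower in RelB-labelled cells (log2 -0.94 ± 0.07, adjusted p = 3.6e-11) and 1.74-fold lower in p52 knockout cells (log2 -0.80 ± 0.07, adjusted p = 3.9e-09). PSMD2 was 1.74-fold lower in RelB-labelled cells, with 4509, 5039 and 4744 against 7811, 8238 and 8862 in control libraries (log2 -0.80 ± 0.06, adjusted p = 2.7e-10). PSMD14, which removes ubiquitin chains as the substrate enters, was 1.77-fold lower there, with 2085, 2171 and 2375 against 3640, 3831 and 4294 (log2 -0.83 ± 0.07, adjusted p = 4e-10).

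**Figure D2:**
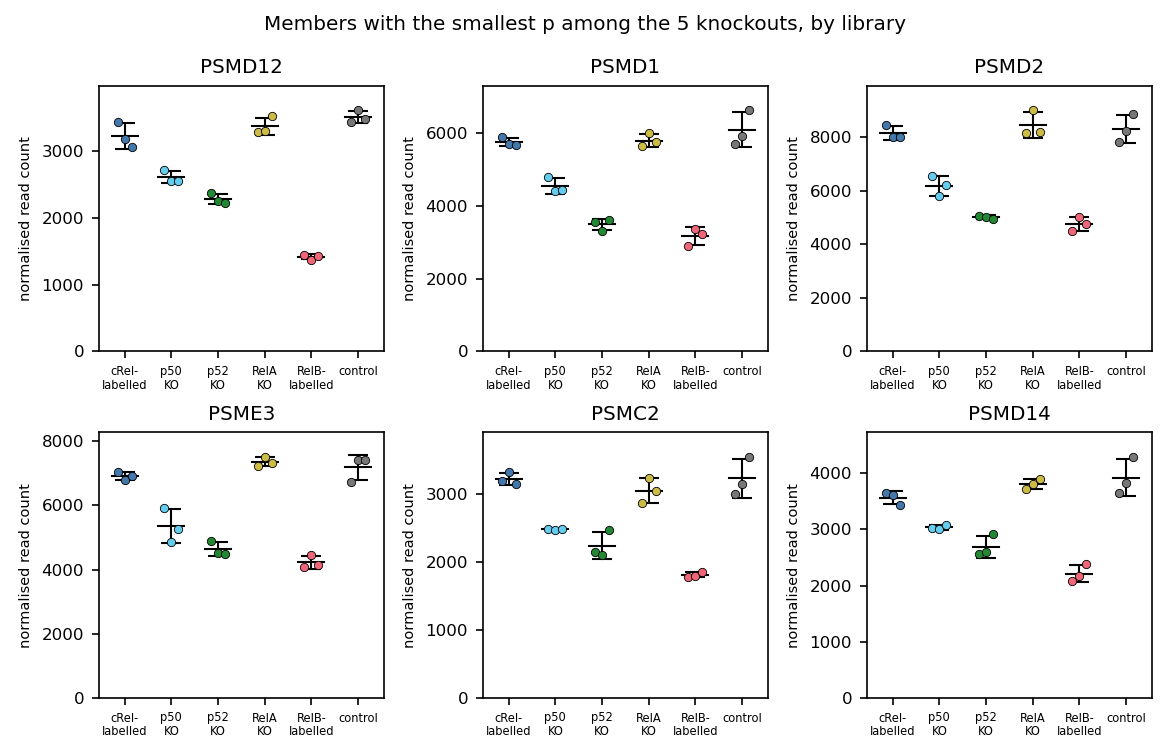
Normalised read count (vertical axes, from 0) of PSMD12, PSMD1, PSMD2, PSME3, PSMC2 and PSMD14 in each library (points) of the 5 knockouts and the control, with the group mean and SD (lines and bars, n = 3). For PSMD12 the RelB-labelled libraries lie at 1373 to 1451 and the control libraries at 3432 to 3616.

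Assembly factors and regulators followed in part. The 19S assembly chaperones PSMD5, PSMD9 and PSMD10 fell, 3 of 3, in each of the RelB-labelled, p52 and p50 knockouts. The shares of all genes called lower there were 34.7%, 26.4% and 19.6%. PSMD9 had 196.8, 247.6 and 239.8 in RelB-labelled libraries, against 384.9, 408.1 and 461.5 in control libraries, a 1.83-fold lower level (log2 -0.87 ± 0.12, adjusted p = 1e-06). Of the core assembly chaperones, PSMG1, which pairs with PSMG2 to line up the alpha ring, had 872, 870.1 and 869.3 in RelB-labelled libraries, against 1427, 1525 and 1715 in control libraries (log2 -0.83 ± 0.09, adjusted p = 2.7e-08). PSMG2 and PSMG4 also fell in RelB-labelled cells, and PSMG3 was not called. PSMF1, an inhibitor of the core, fell by 0.20 in RelB-labelled and by 0.26 in p52 knockout cells.

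The other activators went separate ways. PSME3, the nuclear PA28 gamma ring, had 4067, 4460 and 4151 in RelB-labelled libraries, against 6742, 7417 and 7404 in control libraries, and was 1.70-fold lower (log2 -0.77 ± 0.07, adjusted p = 1e-09). It fell by 0.63 in p52 and by 0.43 in p50 knockout cells. PSME4, the PA200 activator, was called in no knockout, with differences from -0.02 to 0.15. PSME3 overlaps BECN1 on the opposite strand in GENCODE 29, and 15 of the 45 members overlap some gene of the table in that way. The kit was directional, but no source used here says whether counting used the strand, so reads of such pairs cannot be told apart.

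Summed over the 30 constitutive genes, the share of all assigned reads was 0.345% ± 0.016 in RelB-labelled, 0.391% ± 0.0286 in p52 knockout, 0.429% ± 0.00658 in p50 knockout, 0.484% ± 0.0166 in RelA knockout, 0.485% ± 0.0109 in cRel-labelled and 0.501% ± 0.0339 in control libraries (SD, n = 3 each). The constitutive genes fell in 29 of 30 (median log2 fold change -0.61), 25 of 30 (-0.47) and 25 of 30 (-0.35) in the RelB-labelled, p52 and p50 knockouts. Of all genes tested, 34.7%, 26.4% and 19.6% were called lower there, and their median lay between -0.02 and 0 over the 5 comparisons with control. The median was lower for the regulatory particle than for the core in p52 knockout cells, at -0.54 and -0.35, and closer in RelB-labelled cells, at -0.62 and -0.54, and in p50 knockout cells, at -0.37 and -0.32. Without p52 knockout 3, 40 of the 45 members were called lower in p52 knockout cells, against 34 with it. The medians of the core and the regulatory particle were not computed without that library, so their difference in p52 knockout cells may rest on it. In the cRel-labelled and RelA comparisons the constitutive medians were both -0.09, with 0 of 30 called. In bulk RNA, fewer cells with a transcript and less transcript per cell cannot be told apart.

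PSMB8 (LMP7, ENSG00000204264, chromosome 6), the inducible counterpart of PSMB5, had 3414, 3484 and 3668 in RelB-labelled libraries, 4117, 3939 and 5357 in p52 knockout libraries, 4057, 4000 and 3961 in p50 knockout libraries, and 5393, 5524 and 6605 in control libraries. All 9 knockout libraries lay below the lowest control, p52 knockout 3 being close to it. PSMB8 was 1.65-fold lower in RelB-labelled cells (log2 -0.72 ± 0.09, adjusted p = 2e-07), 1.31-fold lower in p52 knockout cells (log2 -0.39 ± 0.09, adjusted p = 0.00071) and 1.45-fold lower in p50 knockout cells (log2 -0.54 ± 0.09, adjusted p = 6.7e-05). PSMB8-AS1, a non-coding gene that overlaps PSMB8 on the opposite strand and PSMB9 on the same strand, fell beside it by 0.74, 0.61 and 0.69 (adjusted p = 1.1e-06, 2.7e-05 and 2.2e-05), and reads of these overlapping genes cannot be told apart here. In cRel-labelled and RelA knockout cells PSMB8 differed by -0.21 and -0.12 (adjusted p = 0.16 and 0.49).

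PSME2, the PA28 beta subunit, had 3673, 4058 and 4055 in RelB-labelled libraries, 3566, 3470 and 4141 in p52 knockout libraries, 4199, 3931 and 4194 in p50 knockout libraries, and 4993, 4961 and 6497 in control libraries. The control libraries were the highest, without overlap, and the 3 knockouts overlapped one another. PSME2 fell by 0.47 (adjusted p = 4.7e-05), 0.55 (adjusted p = 1.5e-05) and 0.41 (adjusted p = 0.00085) in RelB-labelled, p52 and p50 knockout cells. PSME1, its partner PA28 alpha, had 5038, 4633 and 5092 in RelB-labelled libraries, 3997, 4081 and 5064 in p52 knockout libraries, 4039, 4203 and 4135 in p50 knockout libraries, and 4488, 4120 and 5099 in control libraries. The PSME1 groups overlapped, with differences of 0.11, -0.06 and -0.14 (adjusted p = 0.22, 0.53 and 0.17). Without p52 knockout 3 it was -0.17 in p52 knockout cells and passed the test (adjusted p = 0.049). Without control 3, PSME1 in RelB-labelled cells was higher by 0.19 and passed the test (adjusted p = 0.038), as it did after correction for transcript length (0.21, adjusted p = 0.0018) and after quantile normalisation (0.25, adjusted p = 0.012). The ratio of PSME1 to PSME2 read counts was 1.26 ± 0.115 in RelB-labelled, 1.17 ± 0.051 in p52 knockout, 1.01 ± 0.0563 in p50 knockout, 0.784 ± 0.0153 in RelA knockout, 0.840 ± 0.00796 in cRel-labelled and 0.838 ± 0.0574 in control libraries (SD, n = 3 each). The 3 knockouts where PSME2 fell had every ratio above every control ratio. PSME1 overlaps EMC9, and PSME2 overlaps RNF31, on the opposite strand. Reads of these overlaps cannot be told apart here, which limits the ratio as well.

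PSMB9 (LMP2, ENSG00000240065, chromosome 6) is the inducible counterpart of PSMB6. PSMB9 lies beside PSMB8 and overlaps its exons on the opposite strand, so reads of the overlap cannot be told apart here. It had 1961, 1697 and 1762 in RelB-labelled libraries, 1816, 1867 and 2239 in p52 knockout libraries, 1336, 1578 and 1371 in p50 knockout libraries, and 1577, 1494 and 1919 in control libraries. Control 3 overlapped the p52 and RelB-labelled ranges. In p52 knockout cells PSMB9 rose by 0.25 ± 0.09 (adjusted p = 0.03); the call was lost without p52 knockout 3 (0.16, adjusted p = 0.17), without control 1 (0.22, adjusted p = 0.10), without control 2 (0.18, adjusted p = 0.16) and with only those 2 groups in the fit (adjusted p = 0.088). In RelB-labelled cells it was 0.13 ± 0.09 above control (adjusted p = 0.24), and 0.23 above, passing the test, without control 3 (adjusted p = 0.029). In p50 knockout cells it was -0.21 from control (adjusted p = 0.075), and -0.29 without control 2 or without p50 knockout 2, passing the test (adjusted p = 0.032 and 0.037).

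PSMB10 (MECL-1), the inducible counterpart of PSMB7, had 1016, 1077 and 975.5 in RelB-labelled libraries, 923.6, 885.4 and 1099 in p52 knockout libraries, 974.5, 904.8 and 859.3 in p50 knockout libraries, and 1030, 927.7 and 988.2 in control libraries. These ranges overlapped, and the differences were 0.06, -0.02 and -0.11 (adjusted p = 0.52, 0.83 and 0.32). After correction for transcript length, 5 of the 5 inducible genes were called in RelB-labelled cells, against 2 without it. PSMB10 was 0.15 higher there, with a limma adjusted p that rounds to 0.05, so that call sits at the threshold.

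**Figure D3:**
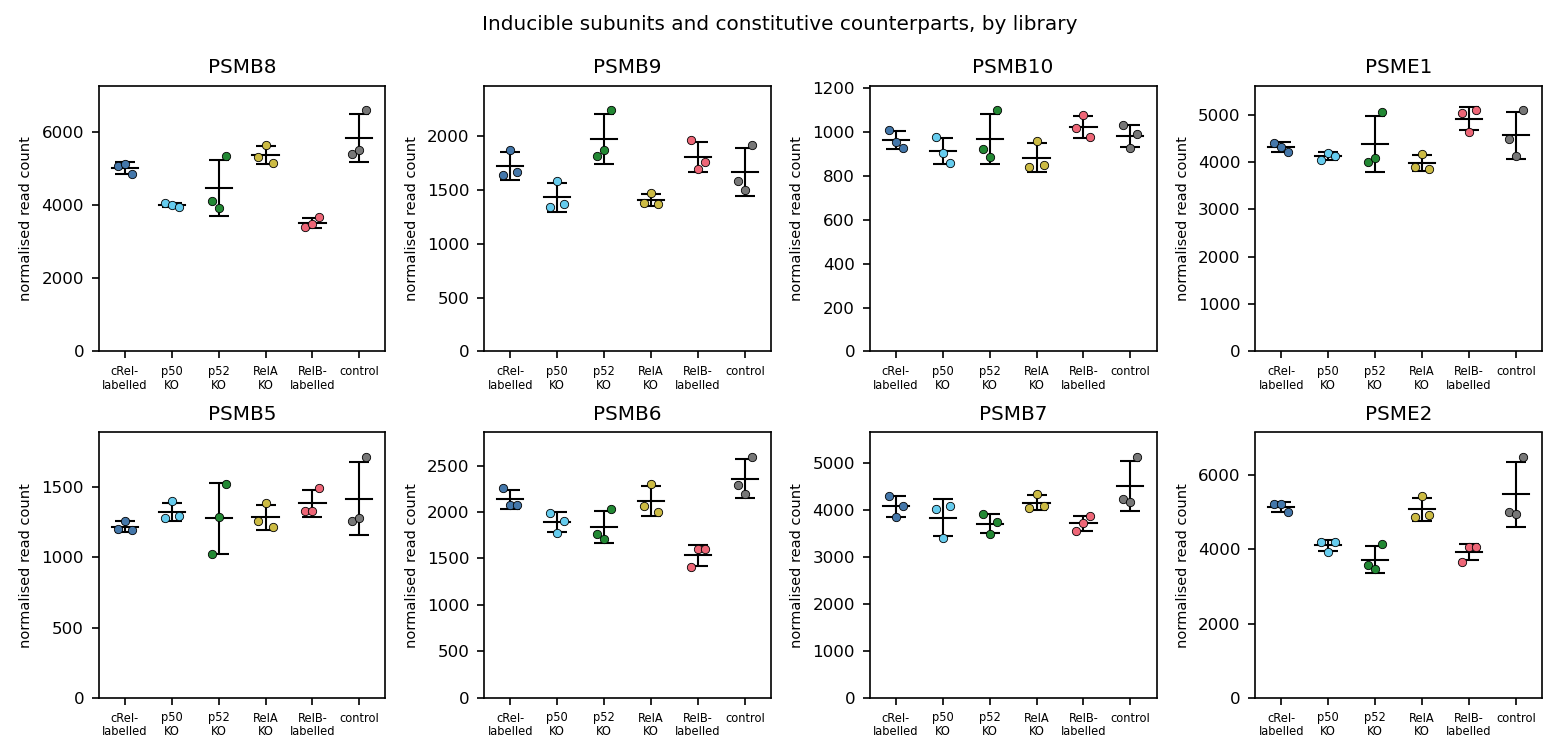
Normalised read count (vertical axes, from 0) of PSMB8, PSMB9, PSMB10 and PSME1 (upper row) above PSMB5, PSMB6, PSMB7 and PSME2 (lower row), in each library (points) of the 5 knockouts and the control, with the group mean and SD (n = 3). PSMB8 lies at 3414 to 3668 in RelB-labelled libraries and 5393 to 6605 in control libraries, while PSMB10 overlaps between the same groups.

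The direct tests between knockouts do not use the control mean. Over the 10 pairs of knockouts, 22 of the 50 tests of the 5 inducible genes were called, and 43.3% of all such tests over all genes. PSMB9 was higher in p52 than in RelA knockout cells by 0.48 (adjusted p = 0.00016), where 26% of all genes were called higher, and it was lower in p50 than in p52 knockout cells (log2 difference -0.46, adjusted p = 0.00095), where 11% of all genes were called lower. Between RelA knockout and RelB-labelled cells all 5 were called: PSMB8 by 0.61 and PSME2 by 0.37 higher in RelA knockout cells, and PSMB9, PSME1 and PSMB10 lower there (-0.36, -0.31 and -0.21). In that pair 34.1% of all genes were called higher and 33.1% lower. PSMB8 was also higher in p52 knockout than in RelB-labelled cells by 0.33 (adjusted p = 0.0038).

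For the constitutive genes, 19 of 30 were higher in p50 knockout than in RelB-labelled cells, where 27.7% of all genes were called higher. Between p52 knockout and RelB-labelled cells 9 of 30 were higher in p52 knockout cells, close to the 23.9% of all genes called so. In p50 knockout cells 7 of 30 were higher than in p52 knockout cells, where 11.2% of all genes were called higher, and these 7 were among the 17 regulatory particle genes. Over the 5 knockouts together, a moderated F-test called 34 of the 45 members, where 78.8% of all genes were called, so the share of members is near the background.

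The balance of inducible to constitutive transcripts was described as the mean log2 level of the 5 inducible genes minus that of the 30 constitutive genes in each library. It was 0.40, 0.28 and 0.26 in RelB-labelled libraries, 0.15, 0.14 and 0.24 in p52 knockout libraries, -0.09, -0.01 and -0.09 in p50 knockout libraries, -0.18, -0.16 and -0.20 in RelA knockout libraries, -0.10, -0.05 and -0.09 in cRel-labelled libraries, and -0.06, -0.17 and -0.10 in control libraries. The RelB-labelled and p52 libraries were above every control library, and the p50, RelA and cRel-labelled libraries overlapped the control. The group differences from control were 0.42, 0.29, 0.05, -0.07 and 0.03 for the RelB-labelled, p52, p50, RelA and cRel-labelled groups. The 2 sides moved by unequal amounts: the inducible mean differed from control by -0.18 in RelB-labelled and -0.16 in p52 knockout cells, and the constitutive mean by -0.60 and -0.44. Set against PSMB5, PSMB6 and PSMB7 alone, the balance was smaller, at 0.13 in RelB-labelled and 0.11 in p52 knockout cells, and at -0.07 in p50 knockout cells.

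Of the catalytic pairs, 1 went against that mean. In RelB-labelled and p52 knockout cells PSMB8 minus PSMB5 differed from control by -0.70 and -0.24 on the log2 scale. PSMB9 minus PSMB6 differed by 0.74 and 0.61, and PSMB10 minus PSMB7 by 0.33 and 0.25, in the same direction as the mean. The ratio of PSMB8 to PSMB5 read counts, not adjusted for transcript length, was 2.55 ± 0.0838 in RelB-labelled, 3.54 ± 0.487 in p52 knockout, 3.03 ± 0.155 in p50 knockout and 4.16 ± 0.263 in control libraries (SD, n = 3 each). The ratio of PSMB9 to PSMB6 was 1.19 ± 0.184 in RelB-labelled, 1.07 ± 0.0391 in p52 knockout, 0.760 ± 0.114 in p50 knockout and 0.703 ± 0.0315 in control libraries. In RelB-labelled libraries the first ratio was below, and the second above, every control value. In p52 knockout libraries the second was also above every control value, but the first, at 3.06 to 4.04, overlapped the control range of 3.85 to 4.33. The ratio of PSMB10 to PSMB7 was 0.276 ± 0.0204 in RelB-labelled and 0.219 ± 0.0257 in control libraries. The ranges, 0.252 to 0.289 and 0.192 to 0.243, did not overlap.

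**Figure D4:**
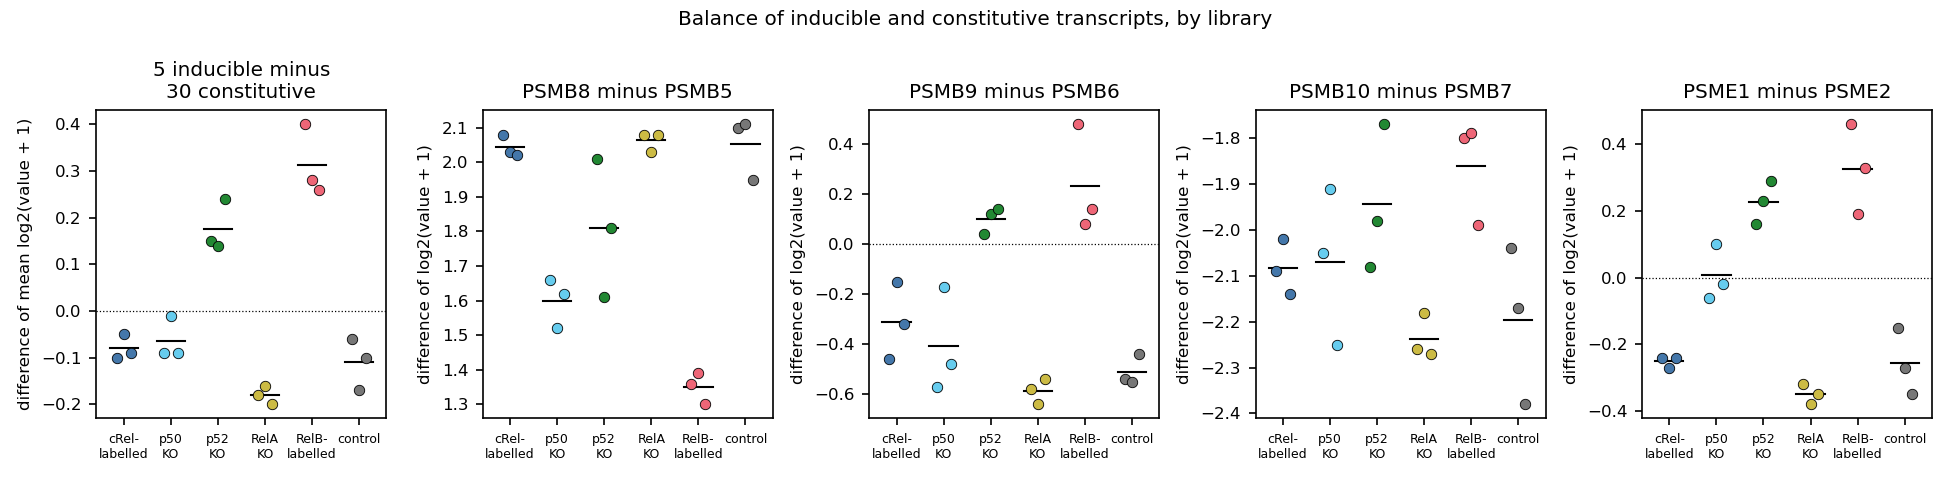
Balance of inducible and constitutive transcripts in each library (points; line, group mean of 3): the mean log2(value + 1) of 5 inducible genes minus that of 30 constitutive genes, then the log2 difference within each of 4 pairs (vertical axes, log2 units). The RelB-labelled libraries lie at 0.26 to 0.40 in the first panel, against -0.17 to -0.06 in the control, and are the lowest in the PSMB8 minus PSMB5 panel.

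Genes that work with the proteasome were read from a list of 22 associated factors. In RelB-labelled cells 11 fell and 2 rose (median -0.16), in p52 knockout cells 11 fell and 1 rose (median -0.14), and in p50 knockout cells 8 fell and 1 rose (median -0.14). Of all genes tested, 34.7% fell and 33.1% rose in RelB-labelled cells, 26.4% fell and 24.5% rose in p52 knockout cells, and 19.6% fell and 17% rose in p50 knockout cells. ADRM1, a ubiquitin receptor of the 19S particle, fell by 0.86 in RelB-labelled cells (adjusted p = 1.4e-08). UCHL5 and USP14, deubiquitinases bound to the particle, fell by 0.61 and 0.45 in p52 knockout cells, and VCP, the segregase that extracts ubiquitinated proteins, fell by 0.59 in RelB-labelled cells. NFE2L1, which encodes a transcription factor of proteasome genes, was higher by 0.32 in RelB-labelled (adjusted p = 7.1e-05), 0.18 in p52 knockout (adjusted p = 0.018), 0.16 in p50 knockout (adjusted p = 0.048) and 0.24 in cRel-labelled cells (adjusted p = 0.018); the last call was lost without control 3 (0.19, adjusted p = 0.12), cRel-labelled 1 (0.22, adjusted p = 0.092) or cRel-labelled 3 (0.24, adjusted p = 0.066). The NFE2L1 calls in RelB-labelled, p52 and p50 knockout cells were not rechecked with libraries left out, and they share the control libraries. In the cRel-labelled comparison NFE2L1 was the one gene of the list called, against 6.09% of all genes.

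The MHC class I loading genes, which receive the peptides, were read from a list of 18. In RelB-labelled cells 14 rose and 2 fell (median 0.45), in p52 knockout cells 10 rose and 3 fell (median 0.23), and in p50 knockout cells 1 rose and 6 fell (median -0.08), beside shares of all genes that rose of 33.1%, 24.5% and 17% in RelB-labelled, p52 and p50 knockout cells and that fell of 34.7%, 26.4% and 19.6%. HLA-F, a non-classical class I chain, rose by 1.24 in RelB-labelled (adjusted p = 9.5e-12) and 0.55 in p52 knockout cells (adjusted p = 5.6e-06). ERAP2, which trims peptides in the endoplasmic reticulum, rose by 0.93 in RelB-labelled cells. TAP1, the peptide transporter chain encoded beside PSMB9, rose by 0.25 in RelB-labelled (adjusted p = 0.00023) and 0.27 in p52 knockout cells (adjusted p = 0.00015) and fell by 0.18 in p50 knockout cells (adjusted p = 0.0091). The chaperone CALR, which also serves general protein folding, fell by 0.82, 0.90 and 0.62 in RelB-labelled, p52 and p50 knockout cells. In the cRel-labelled comparison 2 of the 18 were called, beside 6.09% of all genes, IRF1 at 0.32 and TAP1 at 0.19, the second lost without control 1 or 2 or cRel-labelled 2 or 3 (adjusted p = 0.11, 0.052, 0.12 and 0.12).

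Beside these changes, summed counts of the T and NK cell list were 667.8 to 737.7 in RelB-labelled and 399.3 to 542.3 in control libraries, with NKG7 higher by 0.73. NKG7 made up most of that sum, at a mean of 675 ± 45.5 in RelB-labelled and 411 ± 71.3 in control libraries (SD, n = 3 each), and GNLY went the other way, at 8.01 ± 1.91 in RelB-labelled and 29.4 ± 6.38 in control libraries. Summed counts of the monocyte list were 809.3 to 832.8 in RelB-labelled and 415 to 434.5 in control libraries, with CSF1R higher by 0.94. CSF1R also rose by 0.71 in p52 and by 0.74 in p50 knockout cells. The part of other cells in the proteasome results was not tested.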

How the data were processed

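Polyadenylated RNA of GM12878 cells was sequenced in 18 libraries, 3 for each of 5 knockouts and a control. The submitters' processing notes name STAR 2.5.2b, featureCounts 1.5.1, DESeq2 1.14.1 and the build GRCh37. The deposited unit was a normalised signal: after division by 1 factor per library, 100% of its 308790 values were whole reads, to within 0.0001. Genes with a mean of at least 10 (12381) entered 1 limma (3.58.1) fit of the 18 libraries on log2(value + 1), with the trend of variance on level, two-sided, with Benjamini-Hochberg adjustment within each contrast. edgeR 4.0.16 and DESeq2 1.42.0 on the recovered reads, with R 4.3.3, served as alternatives, besides other normalisations, filters, pseudocounts and libraries left out. Transcript lengths came from GENCODE 29 by gene identifier. The fit was also run on simulated data, which held no transcript length or replicate effects and so does not bear on those. Its outcome is not reported here.

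Named genes were the inducible genes and their counterparts, per knockout the 6 largest called members, the 6 smallest F-test p-values, up to 3 genes per list, and antisense or neighbouring genes of the inducible ones, such as PSMB8-AS1. PSMD4, single genes of the cell-type marker lists such as NKG7 and CSF1R, and members of small counts were added after their values were seen. The members and lists were chosen with earlier results of these data known. Replicate numbers were not treated as pairs: for 0 of 5 knockouts was the correlation with the same-numbered control over 0.1 in every pair. Some genes covered by the naming rule are not reported here.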

Additional observations from a re-analysis of the deposited data

How the results depend on the processing

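Leaving out one library of the groups compared at a time gave 25 to 34 called members in p50, 31 to 40 in p52 and 36 to 39 in RelB-labelled cells, 20 to 25, 23 to 30 and 28 to 29 constitutive genes fallen, 0 in the cRel-labelled and RelA comparisons, 32 to 37 members in the F-test and 19 to 26 of the inducible pair tests. Without p52 knockout 3, which enters the shared spread, 35 members were called in p50 and 1 in cRel-labelled cells. The balance ranged from 0.38 to 0.45 in RelB-labelled, 0.26 to 0.31 in p52, 0.02 to 0.07 in p50, -0.10 to -0.05 in RelA and 0.00 to 0.05 in cRel-labelled cells. With quantile normalisation 36, 29 and 29 members were called in RelB-labelled, p52 and p50 cells, and with edgeR 39, 35 and 32, falls and rises counted together. Against PSMB5, PSMB6 and PSMB7 alone the balance was 0.13 in RelB-labelled, 0.11 in p52, -0.07 in p50, -0.03 in RelA and 0.09 in cRel-labelled cells; with the core alone, chosen after seeing the data, it was 0.34 in RelB-labelled and 0.19 in p52 cells; with the constitutive median it was 0.36 in p52 cells. These differ by construction in the genes averaged.

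With the replicate number as a block, 39, 36 and 34 members were called in RelB-labelled, p52 and p50 cells, 0 in cRel-labelled and RelA cells, 35 in the F-test and 22 of the pair tests. The numbers are not known to pair the libraries, although 16 of 18 were most correlated with one that shared their number.

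Reversed values were all uncalled and near 0. Transcript length correction gave 0.07 for PSMB5 in RelB-labelled cells, 0.03 for PSMB10 in p52 cells, and 0.06 and 0.01 for PSMB10 and PSME1 in cRel-labelled cells. Quantile normalisation gave 0.09 for PSMB5 in RelB-labelled cells and 0.07 for PSME1 in p52 cells. Without control 3, p52 knockout 3 and RelA knockout 2, chosen after seeing the data, PSMB5 was 0.12 in RelB-labelled and 0.06 in p50 cells, and PSME1 and PSME2 were 0.01 and 0.05 in cRel-labelled cells. Leaving out 1 library, PSMB5 ranged from -0.10 to 0.12 in RelB-labelled, -0.16 to 0.06 in p50 and -0.21 to 0.02 in RelA cells, PSMB10 from -0.12 to 0.04 in p52 and -0.07 to 0.01 in cRel-labelled cells, PSME1 from -0.17 to 0.02 in p52 and -0.15 to 0.01 in cRel-labelled cells, PSME2 from -0.17 to 0.03 in RelA and -0.15 to 0.05 in cRel-labelled cells, PSMB9 from -0.02 to 0.16 and REL from -0.33 to 0.17 in cRel-labelled cells. The cause was not tested.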
